A study of Mus musculus with 188 samples.

Results

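The 34 genes described here encode the chaperones, disulfide isomerases, stress sensors, degradation factors and translocon subunits of the mouse endoplasmic reticulum (ER). They were chosen by symbol as a module of ER folding and of the unfolded protein response. The choice did not use their measured values, but earlier results of these data were known. All 34 were found in every count file and all 34 passed the filter on low counts in both sets of libraries, out of 25655 genes listed for batch 1 and 25528 listed for batches 2 and 3.

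The ER folds secreted and membrane proteins with the help of chaperones, enzymes that form disulfide bonds and lectins that read sugar chains. When unfolded proteins accumulate, the sensors IRE1 (Ern1), PERK (Eif2ak3) and ATF6 start the unfolded protein response, in which ATF6 and the spliced form of XBP1 raise the transcription of chaperone and degradation genes, while PERK slows translation and raises ATF4. In brain tissue this response has been studied after ischemia, hemorrhage and oxidative injury.

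Bulk mRNA was sequenced from organotypic brain slice cultures of C57BL/6J mice, with no other genotype, that had been exposed to red blood cell toxins with or without their plasma scavengers. Of 188 libraries, 167 could be placed in a group from their labels. In batch 1, all at 24 h, 10 libraries each were untreated controls or received heme-albumin at 12.5, 50, 200 or 400 µM or heme bound to hemopexin (hemeHpx) at 200 µM. In batches 2 and 3, at 24 h and 48 h, the groups were controls (10 and 9 libraries), hemoglobin (Hb) at 200 µM (10 and 10) and 400 µM (10 and 10), hemoglobin bound to haptoglobin (HbHp) at 200 µM (8 and 8) and 400 µM (4 and 5), and haptoglobin alone (Hp) at 400 µM (12 and 11). The cultures are bulk samples of coronal sections, the added proteins were of human origin, a pair of slices shared each culture insert, and the age of the mice is not given in the labels. The titles of the hemeHpx libraries name haptoglobin, whereas the treatment tag and library name give hpx, which was followed. The labels do not say which libraries came from separate animals, so p-values measure the spread between these libraries, which may be partly technical.

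Total counts ran from 11038484 to 44199060 per library in batch 1 (median 22054776) and from 15587938 to 54174784 in batches 2 and 3 (median 32626873). Of 630 pairs of libraries of 1 group and batch, none was alike within sampling noise. Libraries of batches 2 and 3 carry the prefix E1 or E2 in their names, which the labels do not explain. In the model, 68.0% of 16473 genes differed between E2 and E1 and 17.2% between batch 3 and batch 2, and both were fitted as terms. All HbHp and Hp libraries were sequenced in batch 3, which holds only 2 controls at 24 h and 2 at 48 h, and all HbHp libraries carry the prefix E2. Only 1 control at 24 h and 1 at 48 h share both that batch and that prefix. The HbHp values therefore rest on additive terms for batch and prefix, and whether these terms add was not tested. Libraries that stood apart from their group were HbHp 200 µM at 48 h replicate 1, in which 24 of the 34 genes lay above and 6 below every other library of its group, and heme-albumin 200 µM replicate 8, in which 16 lay above all others. Results that rest on them are given with and without them.

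Levels between genes are compared as RPKM (counts scaled to exon length and library size), and levels of 1 gene between groups as CPM (counts scaled to library size only). In batch 1 controls the median RPKM was highest for Calr (329), the lectin chaperone calreticulin, followed by P4hb (206) and Pdia3 (198), both protein disulfide isomerases. Hspa5, the chaperone BiP that holds the sensors inactive, had a median of 162 (156 to 169), and Hsp90b1, the chaperone GRP94, of 161 (133 to 193), so that the ranges of this neighbouring pair overlapped. The sensors were far lower, with medians of 9.76 for Eif2ak3, 7.46 for Atf6 and 4.43 for Ern1, and 22.6 for the transcription factor gene Xbp1. Derl3, a channel component of ER-associated degradation, was lowest at 0.446. Sec61g, the small gamma subunit of the translocon, had a median of 0.873 in batch 1 controls and 17.5 in the 48 h controls of batches 2 and 3. The files of batch 1 and of batches 2 and 3 list different numbers of genes, and whether Sec61g was counted on the same annotation in both was not tested, so these values are not to be read as a difference in level. The order of the leading genes was the same in the 48 h controls of batches 2 and 3, where Calr had a median of 312, P4hb of 202, Pdia3 of 178, Hspa5 of 172 and Hsp90b1 of 171. In the 24 h controls of batches 2 and 3, Hsp90b1 (163) lay above Hspa5 (160), again with overlapping ranges.

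Promoters of the genes were read from RefSeq (GRCm38.p6, 250 bases before the start site, both strands), where 27 of the 34 genes had an entry. The ER stress response element (ERSE), the letters CCAAT and CCACG separated by 9 bases, is the known binding element of ATF6 with the factor NF-Y. It was found in 9 of the 27 promoters (33.3%), against 35 of 27025 promoters of all genes (0.13%). The holders were Hspa5, Hsp90b1, Dnajc3, Creld2, Calr, Canx, Pdia6, Syvn1 and Derl3. Herpud1 alone held the related ERSE-II (ATTGG and CCACG separated by 1 base, in 0.037% of all promoters), and Hspa5 alone the letters TGACGTG (in 1.85%). The genes were chosen as a module of the unfolded protein response, in which ATF6 acts. The share with an ERSE is therefore not independent of that choice. The stretches below are from the 8 genes with an ERSE that were lower with 400 µM heme-albumin, the comparison with the most genes called. Capitals mark the CCAAT and CCACG parts or, where the element lies on the other strand, CGTGG and ATTGG. The Hsp90b1 promoter holds 2 matches.
Hspa5 (chr2:34772010-34772058, plus strand): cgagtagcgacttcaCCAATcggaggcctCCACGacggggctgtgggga
Hsp90b1 (chr10:86705518-86705671, minus strand): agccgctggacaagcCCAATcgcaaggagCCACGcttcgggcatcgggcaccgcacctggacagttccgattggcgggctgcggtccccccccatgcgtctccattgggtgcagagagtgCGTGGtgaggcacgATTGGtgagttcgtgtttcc
Dnajc3 (chr14:118937812-118937860, plus strand): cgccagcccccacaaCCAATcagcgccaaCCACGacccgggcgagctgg
Creld2 (chr15:88819505-88819553, plus strand): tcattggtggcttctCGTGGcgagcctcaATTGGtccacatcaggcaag
Calr (chr8:84847060-84847108, minus strand): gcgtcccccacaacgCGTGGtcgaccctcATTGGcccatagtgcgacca
Canx (chr11:50325785-50325833, minus strand): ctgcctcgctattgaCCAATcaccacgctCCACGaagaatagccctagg
Pdia6 (chr12:17266476-17266524, plus strand): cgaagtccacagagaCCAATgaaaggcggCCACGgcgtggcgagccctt
Derl3 (chr10:75893227-75893275, plus strand): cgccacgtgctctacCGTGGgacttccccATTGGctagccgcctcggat

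At 24 h, heme-albumin lowered the ER chaperone genes at its 2 highest doses, and none of the 34 genes passed as higher in the fit to all batch 1 libraries. With 200 µM, 14 of 34 genes were lower than in controls (41.2%), where 13.6% of 15554 genes were called in either direction and 6.6% were lower. With 400 µM, 15 were lower (44.1%), where 29% of all genes were called and 14.3% were lower. The fall was in the chaperones (7 of 10 at 400 µM), the disulfide isomerases (3 of 5) and both lectin chaperones, while 1 of 6 translocon genes, 2 of 7 degradation genes and none of the 4 sensor and Xbp1 genes were lower. The median log2 fold change of the 34 genes was -0.09 at 200 µM and -0.10 at 400 µM. In bulk tissue, fewer cells of a type and less RNA per cell cannot be told apart.

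**Figure D1:**
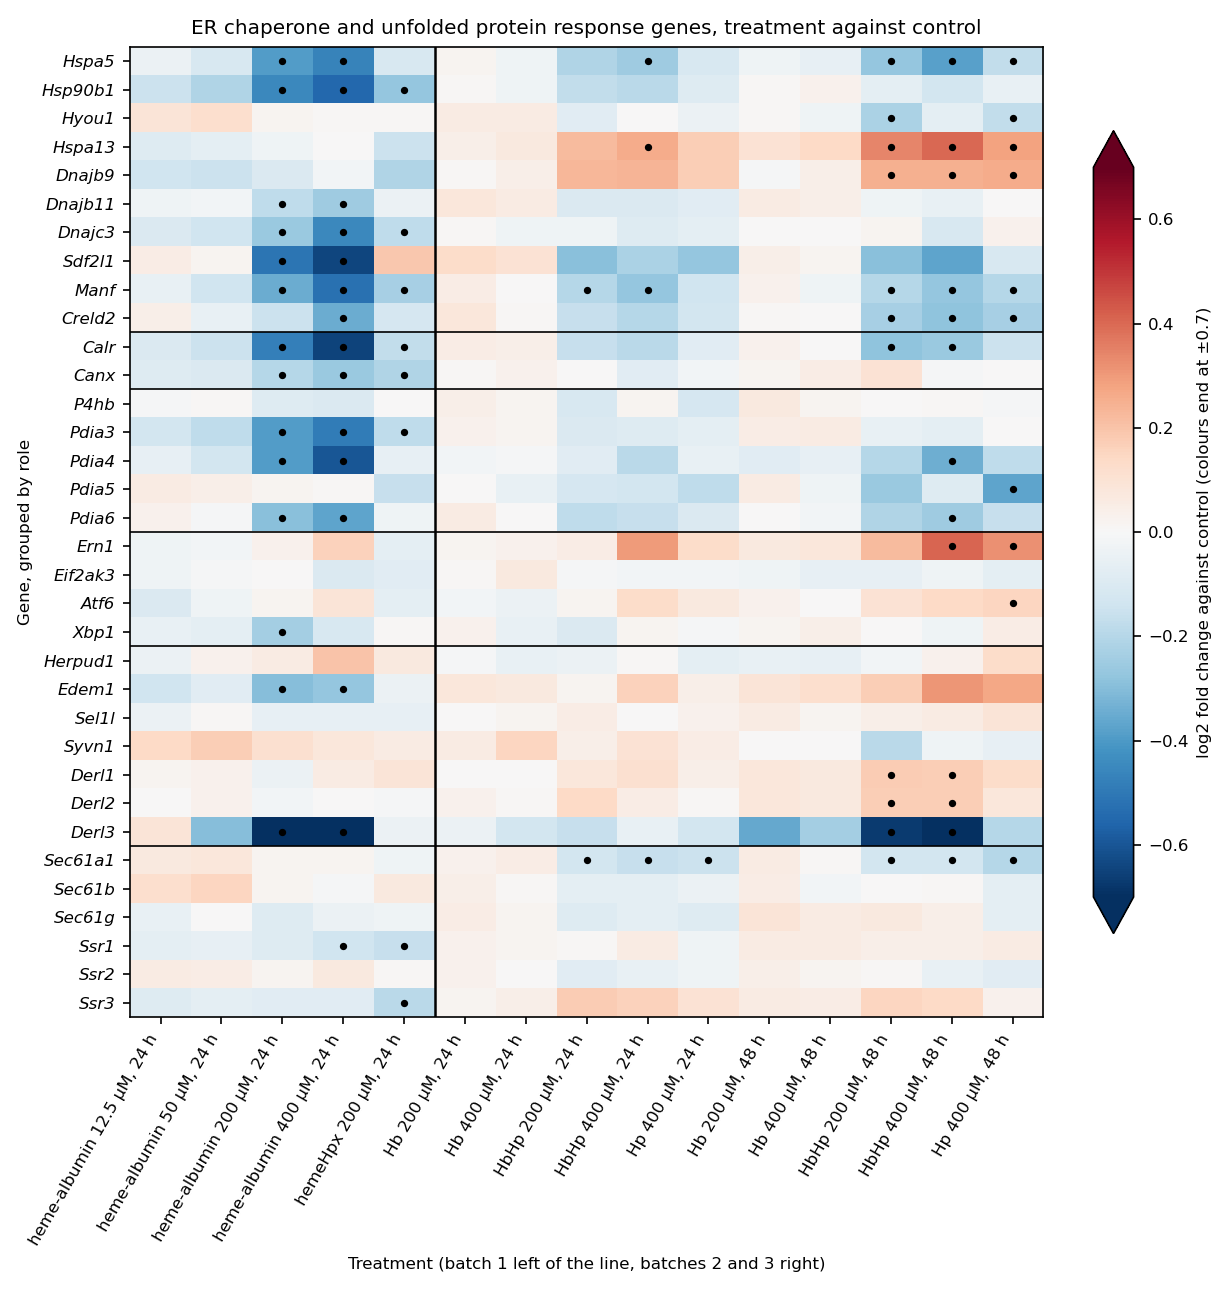
Log2 fold change of each of the 34 genes (rows, grouped by role) against control in each treatment (columns, batch 1 left of the line). Blue is lower and red higher than control, and dots mark an adjusted p under 0.05; the blue dotted block lies in the chaperone, isomerase and lectin rows at 200 and 400 µM heme-albumin.

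Hspa5 (ENSMUSG00000026864) ran from 658 to 715 CPM in the 10 controls (median 687), from 460 to 620 with 200 µM heme-albumin (median 513) and from 428 to 577 with 400 µM (median 488). Neither dose overlapped the controls. Its log2 fold change was -0.39 (SE 0.047, edgeR adjusted p = 1.36e-08) at 200 µM and -0.47 (SE 0.0471, adjusted p = 6.02e-12) at 400 µM. Calr (ENSMUSG00000003814), a calcium-binding lectin chaperone of glycoproteins, ran from 861 to 1090 CPM in controls (median 948), from 596 to 821 at 200 µM (median 699) and from 477 to 735 at 400 µM (median 614). It did not overlap the controls at either dose, with log2 fold changes of -0.48 (SE 0.0548, adjusted p = 3.29e-09) and -0.65 (SE 0.0549, adjusted p = 2.68e-14). Hsp90b1 (ENSMUSG00000020048) ran from 538 to 778 CPM in controls (median 648), from 422 to 622 at 200 µM (median 465) and from 382 to 555 at 400 µM (median 447). Its groups overlapped at both doses, and it fell by 0.45 (SE 0.0658, adjusted p = 1.02e-06) and by 0.55 (SE 0.0659, adjusted p = 1.38e-09) on the log2 scale.

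Pdia4, an isomerase found in complexes with BiP, ran from 270 to 349 CPM in controls (median 320), from 200 to 291 at 200 µM (median 239) and from 164 to 251 at 400 µM (median 209). The 400 µM libraries all lay below the controls, with a log2 fold change of -0.60 (SE 0.0613, adjusted p = 1.61e-11). Sdf2l1, a cofactor of the BiP cycle, ran from 16.1 to 38.6 CPM in controls (median 26), from 12.6 to 22.4 at 200 µM (median 18.0) and from 11 to 20.7 at 400 µM (median 16.6), with overlapping groups. It fell by 0.51 (SE 0.128, adjusted p = 0.00399) and by 0.64 (SE 0.128, adjusted p = 9.31e-05) on the log2 scale. Derl3 had the lowest log2 fold changes, -1.10 (SE 0.19, adjusted p = 3.29e-05) and -1.09 (SE 0.189, adjusted p = 7.78e-06), at a level of 0.455 to 1.86 CPM in controls and 0.286 to 0.624 at 400 µM. The other genes lower at both doses were the BiP cochaperones Dnajb11 and Dnajc3, the secreted ER protein gene Manf, the isomerases Pdia3 and Pdia6, the lectin chaperone Canx and Edem1, which directs glycoproteins to degradation, with log2 fold changes from -0.52 for Manf to -0.25 for Dnajb11 at 400 µM. Of the 13 genes lower at both doses, 11 had a lower log2 fold change at 400 µM than at 200 µM. Both doses share their controls, and 400 µM was not tested against 200 µM. Creld2, a stress-induced ER protein gene, and Ssr1, a subunit of the translocon-associated complex, were called at 400 µM only.

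**Figure D2:**
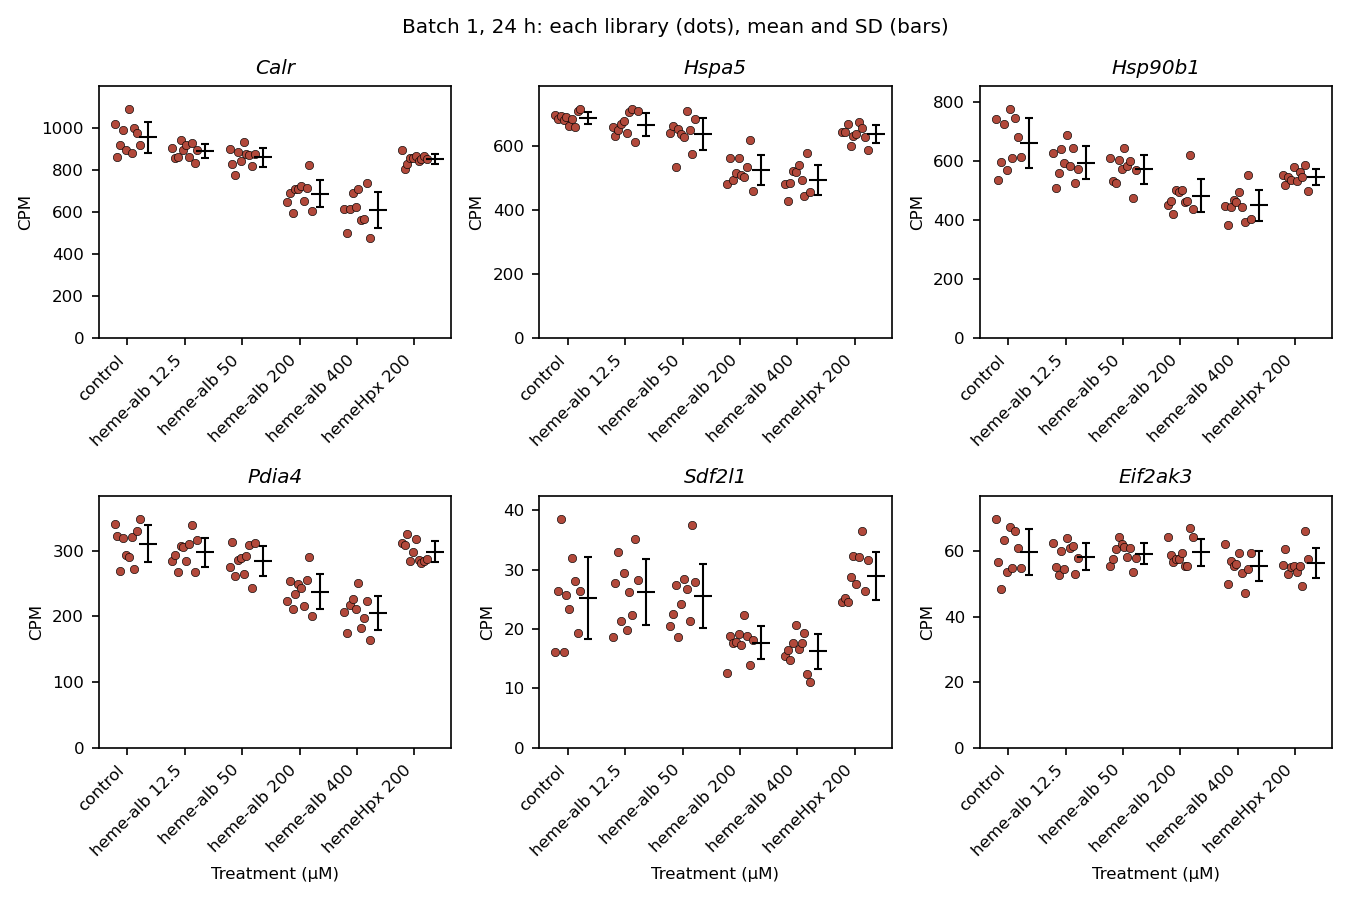
CPM in each batch 1 library (dots) with mean and SD (bars) for 6 genes in controls, heme-albumin (heme-alb) at 4 doses and hemeHpx, with the dose in µM on the x axis. Calr and Hspa5 lie below every control library at 200 and 400 µM heme-albumin, and Eif2ak3 stays between 47.3 and 69.9 CPM in the controls and at those doses.

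In the fit to all batch 1 libraries, none of the 3 sensors passed at any dose of heme-albumin. Eif2ak3, encoding PERK, ran from 48.5 to 69.9 CPM in controls (median 58.8), from 55.4 to 67.1 at 200 µM (median 58.2) and from 47.3 to 62.3 at 400 µM (median 55.9). Atf6 had medians of 68.9 in controls (59.8 to 79.4), 72.8 at 200 µM (59.3 to 74.9) and 74.4 at 400 µM (59.4 to 85.3). Ern1, encoding IRE1, had medians of 36.2 in controls (31.2 to 41.3), 37.6 at 200 µM (30.8 to 41.2) and 40.2 at 400 µM (32.2 to 50.8). All of these groups overlapped. At 400 µM the log2 fold changes were -0.10 for Eif2ak3 (adjusted p = 0.143), 0.09 for Atf6 (adjusted p = 0.242) and 0.16 for Ern1 (adjusted p = 0.0651), in edgeR. Xbp1 ran from 65.7 to 94.5 CPM in controls (median 73.3), from 54.4 to 77.1 at 200 µM (median 63.6) and from 61.1 to 94.3 at 400 µM (median 68.2). It passed at 200 µM only, at -0.24 (SE 0.0738, adjusted p = 0.0203), and its value at 400 µM was -0.11 (adjusted p = 0.27). Counts per gene do not separate the spliced from the unspliced Xbp1 transcript.

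The 18 genes not lower at any dose were Hyou1, Hspa13, Dnajb9, P4hb, Pdia5, Ern1, Eif2ak3, Atf6, Herpud1, Sel1l, Syvn1, Derl1, Derl2, Sec61a1, Sec61b, Sec61g, Ssr2 and Ssr3. At the lower doses edgeR called none of the 34 genes. With 12.5 µM, 0.045% of all genes were called and DESeq2 called 0 of the 34. In edgeR, 2 of the 34 had an unadjusted p under 0.05, against 1226 of all 15554 genes. With 50 µM the background was 0.463% and DESeq2 called 0 of the 34. Here 7 of the 34 had such a p, of which 6 were lower, against 1820 of all 15554 genes. At 50 µM, Hsp90b1 was at -0.21 (adjusted p = 0.185) and Calr at -0.15 (adjusted p = 0.275). Without heme-albumin 200 µM replicate 8, all 14 calls at 200 µM stood, and without heme-albumin 400 µM replicate 8 the 15 calls at 400 µM stood and Ern1 was added as higher, at 0.19 (SE 0.0672, adjusted p = 0.0233).

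Other genes of the pathway were taken from lists, which were also chosen with earlier results of these data known. Of 24 genes listed under the PERK-ATF4 branch, 16 rose and none fell at 200 µM (median log2 fold change 0.54), and 18 rose and none fell at 400 µM (median 0.91). The branch is the name of the list, and whether PERK acted on these genes was not tested. Among them at 400 µM were Chac1, a glutathione-degrading enzyme gene, at 2.26 (SE 0.216, adjusted p = 1.92e-12) and Trib3, a pseudokinase gene, at 2.06 (SE 0.204, adjusted p = 6.02e-12). Of 22 other degradation genes, 10 rose and 1 fell at 400 µM, with Nploc4, a cofactor of the segregase p97, at 0.40. Of 22 other folding enzymes, 7 fell and none rose, with Fkbp14, a prolyl isomerase, at -0.38. Of 15 other regulators of the response, 3 rose and 1 fell, with Traf2, an adaptor of IRE1, at 0.45. Of 27 other translocation and glycosylation genes tested, 3 rose and 8 fell, with Magt1, an oligosaccharyltransferase subunit, at -0.34. Read against the 29% of all genes called at 400 µM, the 4 of 15 regulators are near the background.

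**Figure D3:**
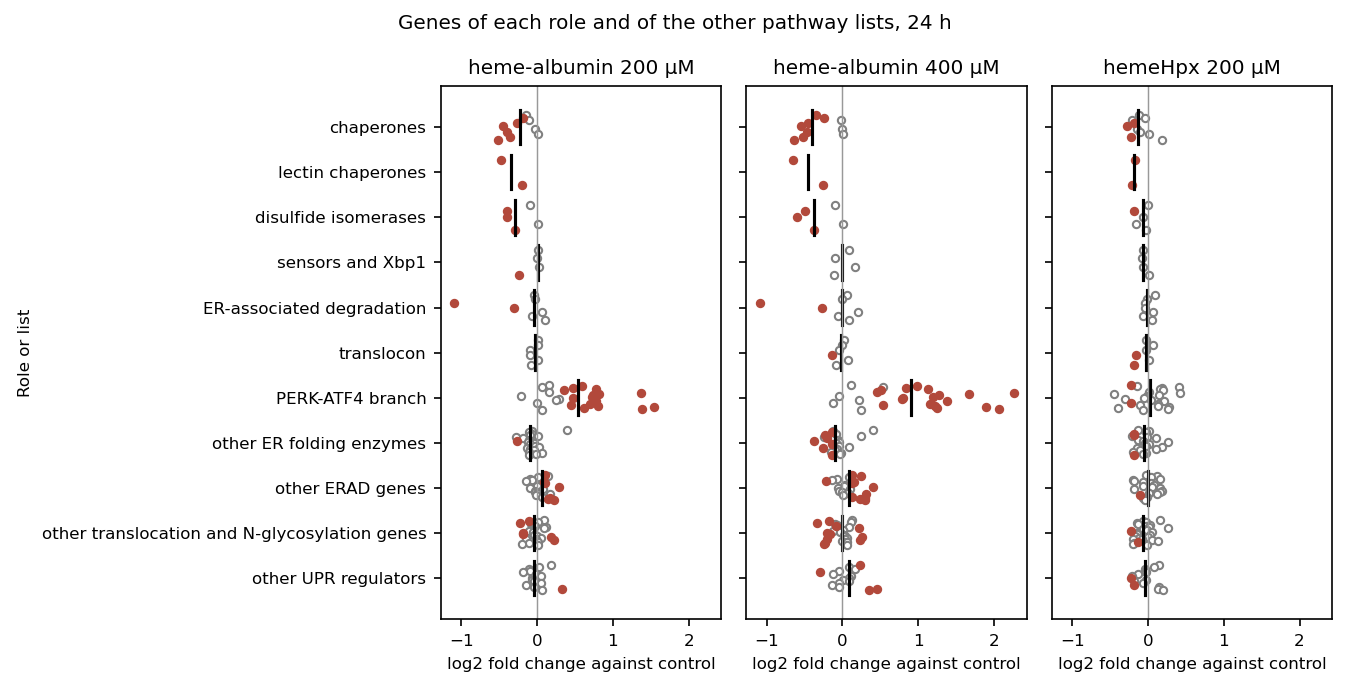
Log2 fold change against control of each gene (points; filled where the adjusted p is under 0.05) by role or list, with the list median as a bar, for heme-albumin 200 and 400 µM and hemeHpx 200 µM. The PERK-ATF4 genes lie to the right with heme-albumin (medians 0.54 and 0.91), the chaperones to the left (medians -0.22 and -0.40), and with hemeHpx the PERK-ATF4 median is 0.03.

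Markers of other cell types moved with heme-albumin too. Of 9 microglia markers, 7 were lower at 200 µM (median -0.83) and 4 at 400 µM (median -0.70), and their summed level ran from 636 to 2970 CPM in controls, from 467 to 1270 at 200 µM and from 479 to 1680 at 400 µM. Of 8 astrocyte markers, 3 were lower at 200 µM (median -0.24) and 5 at 400 µM (median -0.38), with sums of 7950 to 12000 CPM in controls, 6590 to 11100 at 200 µM and 5680 to 9650 at 400 µM. No marker of these lists had a median under 1 CPM in these groups. Of 9 neuron markers 1 was higher at 400 µM, with sums of 555 to 765 CPM in controls and 536 to 812 at 400 µM, and Slc17a7, a defining marker of excitatory neurons, had a median under 1 CPM in both. At 400 µM, 2 of 7 endothelial markers and 1 of 4 pericyte markers were lower and 1 of 8 oligodendrocyte markers was higher. At 200 µM, 1 of 7 endothelial and 1 of 4 pericyte markers were lower and 1 of 8 oligodendrocyte markers was higher. No marker of choroid plexus or of meningeal fibroblasts was called, with medians of -1.03 and -0.57 at 200 µM and of -0.51 and -0.12 at 400 µM. The part of these shifts in the chaperone values was not tested.

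The ERSE was held by 8 of the 14 genes that were lower at 400 µM and had a promoter entry (57.1%) and by 1 of the 13 not called (7.69%), which was Syvn1, a ubiquitin ligase gene. The shorter CCAAT box was in 13 of those 14 and 9 of those 13, and in 37.5% of all promoters. Outside the 34 genes, 9 tested genes held an ERSE, of which 1, Adcy3, was lower at 400 µM, against 14.2% of 11639 tested genes without the element. These are counts with no test, and a match of letters does not show binding.

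**Figure D4:**
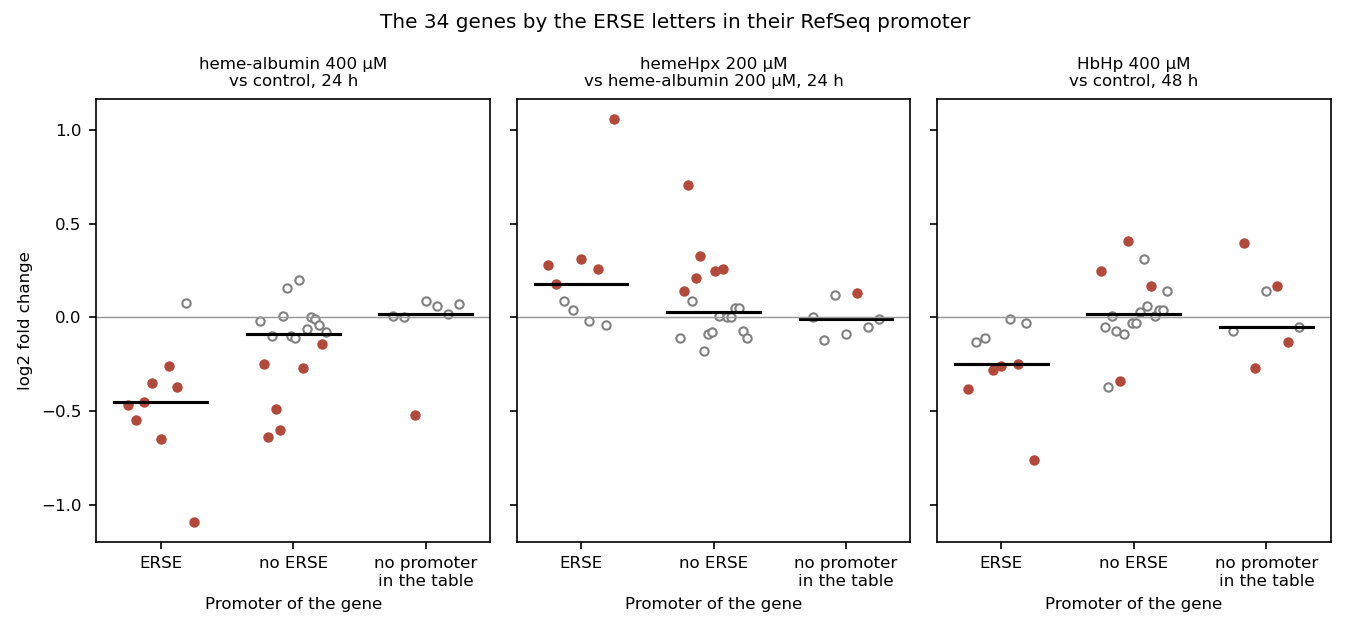
Log2 fold change of the 34 genes, split by whether their RefSeq promoter holds an ERSE (9 genes), holds none (18) or is missing from the table (7), in 3 comparisons; filled points have an adjusted p under 0.05 and bars are medians. With 400 µM heme-albumin, 8 of the 9 ERSE genes are filled and below 0.

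Binding of heme to hemopexin instead of albumin addresses whether the partner changes the response at a matched dose of 200 µM and time of 24 h. With hemeHpx, 12 of the 34 genes were higher than with heme-albumin and none was lower (35.3%), where 25.9% of all genes were called and 13% were higher. These 12 include 11 of the 14 genes lower with heme-albumin, and the other was Derl1. Both comparisons use the same heme-albumin libraries, so the overlap is not independent evidence. Hspa5 ran from 588 to 675 CPM with hemeHpx (median 641) against 460 to 620 with heme-albumin, and the groups overlapped, with a log2 difference of 0.28 (SE 0.047, adjusted p = 2.05e-05). Calr ran from 802 to 892 CPM with hemeHpx (median 854) against 596 to 821, with a difference of 0.31 (SE 0.0547, adjusted p = 4.71e-05). Sdf2l1 ran from 24.5 to 36.6 CPM with hemeHpx (median 28.2) against 12.6 to 22.4, the only one of the 34 without overlap, at 0.71 (SE 0.127, adjusted p = 6.4e-05). The share of all genes without overlap was not counted. Xbp1 ran from 63.3 to 89.9 CPM with hemeHpx (median 77.4) and was higher by 0.25 (SE 0.0735, adjusted p = 0.0118). Differences for Eif2ak3, Atf6 and Ern1 were -0.08, -0.09 and -0.09, with 95% intervals of -0.19 to 0.02, -0.20 to 0.02 and -0.23 to 0.04. Of the 24 PERK-ATF4 genes, 18 were lower with hemeHpx than with heme-albumin (median -0.57). Without heme-albumin replicate 8, 11 of the 12 calls stood. Of the 9 microglia markers, 8 were higher with hemeHpx than with heme-albumin (median 0.94), with a summed level of 861 to 2370 CPM, and 3 of 8 astrocyte markers were higher. Their part in these differences was not tested.

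Against controls, hemeHpx lowered 8 of the 34 genes (23.5%), where 8.2% of all genes were called and 4.44% were lower. Hsp90b1 ran from 498 to 589 CPM (median 547) against 538 to 778 in controls, at -0.27 (SE 0.0657, adjusted p = 0.0216). Manf, a secreted ER stress protein, had a lowest value of 92.0 CPM, a median of 98.3 and a mean of 99.0 ± 5.16 (SD, n = 10) against 94.9 to 135 (median 118), at -0.23 (SE 0.0764, adjusted p = 0.0486). Canx, the membrane lectin calnexin, ran from 532 to 642 CPM (median 605) against 613 to 761 (median 702), at -0.21 (SE 0.0557, adjusted p = 0.03). The groups overlapped for each. The other genes were Dnajc3, Pdia3, Calr, Ssr1 and Ssr3, from -0.19 to -0.16, while Hspa5 was at -0.11 (adjusted p = 0.105). The count fell to 3 without the filter on low counts and to 1, Hsp90b1, with a correction for GC content and length. The count over all genes fell with it, from 1276 to 277 without the filter and to 109 with the correction.

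Free hemoglobin left no call among the 34 genes at either dose or time in edgeR or DESeq2. At 24 h, 0.0971% of 16473 genes were called with 200 µM and 0.522% with 400 µM. None of the 34 had an unadjusted p under 0.05 at either dose, against 516 and 1141 of all genes. At 48 h the background was 0.31% and 0.601%. There 3 and 1 of the 34 had such a p, against 784 and 1164 of all genes. Hspa5 at 48 h ran from 656 to 753 CPM with 200 µM (median 707) and from 627 to 776 with 400 µM (median 693), against 619 to 805 in controls (median 726). All 3 groups overlapped, and the 95% interval of its log2 fold change was -0.13 to 0.07 at 200 µM and -0.16 to 0.04 at 400 µM. The interaction of Hb 200 µM and time called none of the 34, with 0 at an unadjusted p under 0.05 and 0 in DESeq2.

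In the fit, some of the 34 genes were higher and others lower with HbHp than in controls. At 24 h, 2 genes were lower with 200 µM, Manf and Sec61a1, the channel subunit of the translocon, where 1.93% of all genes were called. With 400 µM 4 passed, where 5.15% of all genes were called. Manf was at 87.2, 87.3, 97.0 and 98.1 CPM with 400 µM against 103 to 126 in the 10 controls, with no overlap, at -0.27 (SE 0.0657, adjusted p = 0.00475). Hspa5 was at 643, 603, 683 and 620 CPM against 628 to 781 (median 677), with overlap, at -0.25 (SE 0.0738, adjusted p = 0.0311). Hspa13, a stress-linked microsomal chaperone of the HSP70 family, was at 66.2, 66.3, 67.1 and 61.8 CPM against 48.5 to 71.1 (median 65.1). Its plain levels overlapped, and the fitted value, which takes batch and prefix into account, was 0.26 (SE 0.077, adjusted p = 0.031). Sec61a1 was also lower with 400 µM, and with Hp alone, where it was the single gene called at 24 h and 0.704% of all genes were called.

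At 48 h, 11 of the 34 genes differed from controls in the fit with HbHp 200 µM (4 higher and 7 lower, 32.4%). With HbHp 400 µM, 13 differed (5 higher and 8 lower, 38.2%), where 11.9% of all genes were called at each dose. The comparisons share their controls. Hspa5 was at 584, 605, 608, 621 and 622 CPM with 400 µM and ran from 607 to 817 with 200 µM (median 628), against 619 to 805 in the 9 controls. The 400 µM libraries overlapped the lowest control only, and the log2 fold changes were -0.27 (SE 0.0632, adjusted p = 0.00197) at 200 µM and -0.38 (SE 0.0706, adjusted p = 5.24e-05) at 400 µM. Calr was at 816, 814, 890, 912 and 826 CPM with 400 µM and ran from 732 to 893 with 200 µM (median 858), against 763 to 1100 in controls (median 900). It overlapped the controls and was at -0.28 (SE 0.0663, adjusted p = 0.00227) and -0.26 (SE 0.0741, adjusted p = 0.00994). Hspa13 was at 74.2, 70.1, 75.8, 76.5 and 70.5 CPM with 400 µM and ran from 61.9 to 97.5 with 200 µM (median 66.7), against 52 to 73.3 in controls (median 65.8). It was higher by 0.34 (SE 0.0669, adjusted p = 0.000198) and by 0.40 (SE 0.0737, adjusted p = 5.5e-05) in the fit.

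Among the sensors, Ern1 was called with HbHp 400 µM at 48 h, at 32.2, 30.5, 47.4, 49.1 and 39.7 CPM against 22.1 to 35.4 in controls (median 30.7). Its groups overlapped, with a log2 fold change of 0.41 (SE 0.121, adjusted p = 0.0155), and whether HbHp differed from heme-albumin was not tested since they lie in separate batches. Hsp90b1 was at 616, 611, 670, 660 and 635 CPM against 588 to 739 in controls (median 689), at -0.13 (adjusted p = 0.253 in edgeR). Xbp1, Atf6 and Eif2ak3 were at -0.03, 0.14 and -0.03 with 400 µM (adjusted p of 0.894, 0.0634 and 0.854 in edgeR). Xbp1 was at 95, 92.9, 115, 115 and 95.3 CPM with 400 µM against 71.9 to 113 in controls. Further genes higher at both doses in the fit were Dnajb9, a BiP cochaperone that restrains IRE1, and the degradation genes Derl1 and Derl2, by 0.17 to 0.25. Dnajb9 was at 46.3, 39.8, 39.3, 46.4 and 41.6 CPM with 400 µM, within the range of the 48 h controls. Those with the prefix E2 were at 48.6 in batch 2 and 33.5 in batch 3. The batch 3 term of Dnajb9 was -0.4 (adjusted p = 2e-11 in edgeR). None of Ern1, Dnajb9, Derl1 and Derl2 was called with batch 3 or E2 libraries alone. Creld2 and Manf were lower at both doses. At 400 µM, 5 of the 34 genes did not overlap the controls, namely Creld2, Manf, Derl1, Derl2 and Canx. Canx was at 520 to 542 CPM, yet its fitted log2 fold change was -0.01 and it was not called. Overlap was read from plain CPM, which takes no account of batch and prefix. The share of all genes without overlap was not counted here either.

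**Figure D5:**
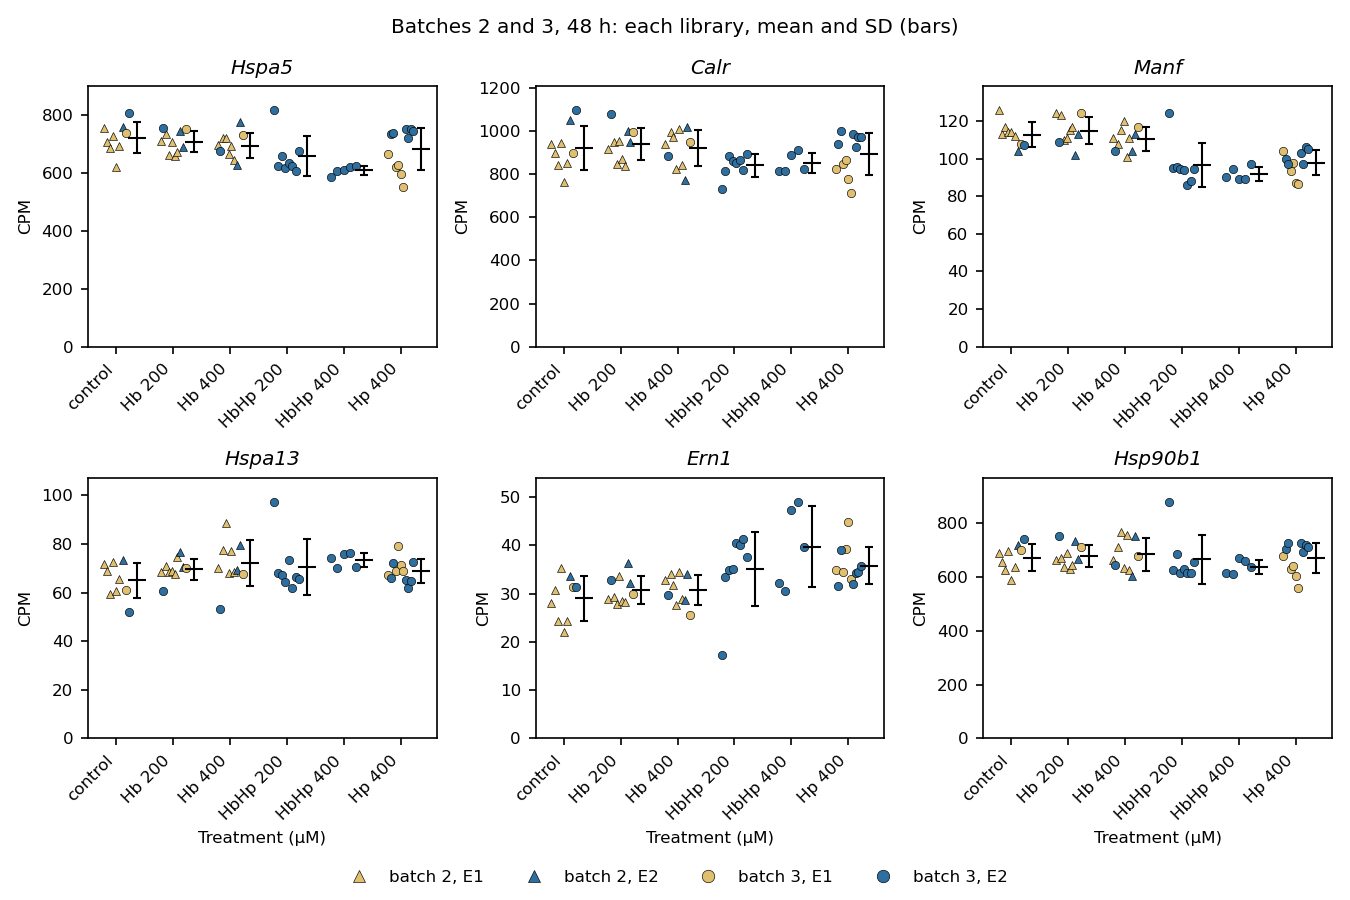
CPM in each library at 48 h for 6 genes, with mean and SD (bars), for controls, Hb, HbHp and Hp (dose in µM). Triangles are batch 2 and circles batch 3, yellow is prefix E1 and blue E2; the 5 HbHp 400 µM libraries are low for Hspa5 (584 to 622 CPM) and lie between 70.1 and 76.5 CPM for Hspa13.

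With haptoglobin alone at 400 µM, 10 of the 34 genes differed from controls at 48 h (4 higher and 6 lower, 29.4%). Of all genes, 10.8% were called. Creld2, Dnajb9, Hspa13, Hspa5, Manf and Sec61a1 were called with Hp and with both doses of HbHp, in comparisons that share controls. Hspa13 ran from 61.9 to 79.4 CPM with Hp (median 68.9), at 0.28 (SE 0.0609, adjusted p = 0.00129). Ern1 ran from 31.6 to 44.9 CPM (median 34.6), at 0.32 (SE 0.1, adjusted p = 0.0274). Pdia5, a protein disulfide isomerase, ran from 6.52 to 10.8 CPM (median 8.24) against 8.38 to 13.9 in controls (median 11.1), at -0.37 (SE 0.106, adjusted p = 0.0149). Atf6 was the other sensor called, at 77.2 to 91.6 CPM (median 84.8) against 66.6 to 84.2 in controls (median 75.5), at 0.15 (SE 0.0441, adjusted p = 0.0178). Each overlapped the controls. Of the markers of other cell types, 2 of 4 for pericytes were higher with Hp (median 0.61), and 1 each for astrocytes, neurons, meningeal fibroblasts and oligodendrocytes was lower. Their part in the Hp values was not tested. HbHp 400 µM against Hp 400 µM gave no call at 24 h (background 0.619%, 3 with an unadjusted p under 0.05, DESeq2 0) or 48 h (background 1.44%, 6 with such a p, DESeq2 1). Over all 16473 genes, 1480 at 24 h and 2616 at 48 h had such a p. At 48 h the 95% interval of the difference was -0.33 to -0.08 for Hspa5 (log2 difference -0.20, adjusted p = 0.0635 in edgeR), -0.24 to 0.01 for Calr and -0.02 to 0.24 for Hspa13.

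With batch 3 libraries alone, an alternative chosen after the data were seen, Calr, Hspa13 and Hspa5 were called at 48 h with HbHp 200 µM (3 genes in all) and, with Sdf2l1, with HbHp 400 µM (4), and none of the 34 was called with Hp. Over all 16515 genes tested, that fit called 359 with HbHp 200 µM, 602 with HbHp 400 µM and 0 with Hp, so the absence of Hp calls is not particular to the 34. With E2 libraries alone the counts were 4, 5 and 0, again with Calr, Hspa13 and Hspa5 among those for HbHp, and 646, 766 and 5 of all 16429 genes tested were called, against 1959, 1968 and 1773 of 16473 in the fit to all libraries. The 2 batch 3 controls at 48 h had 736 and 805 CPM for Hspa5, 897 and 1100 for Calr and 60.9 and 52 for Hspa13. In each pair the first value is from prefix E1 and the second from E2, the prefix of all HbHp libraries. Without HbHp 200 µM replicate 1, 9 genes were called with HbHp 200 µM at 48 h, of which Calr, Creld2, Hspa13, Hspa5, Manf and Sec61a1 were among the 11. Ern1, Pdia4 and Pdia6 were gained, and the count over all genes fell from 1959 to 1199. At 48 h with HbHp 400 µM, 1 of 9 microglia markers (median -0.39) and 1 of 8 astrocyte markers (median -0.29) were lower, as was 1 marker each of oligodendrocytes and meningeal fibroblasts. The summed levels were 1810 to 4860 CPM against 766 to 5580 in controls for microglia and 4750 to 7190 against 5940 to 10700 for astrocytes, and their part was not tested.

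HbHp was also set against Hb at 200 µM, to compare the complex with free hemoglobin at the same hemoglobin dose. No Hb 200 µM library at 24 h, and only 1 at 48 h, shares both batch 3 and the prefix E2 with the HbHp libraries. The differences therefore rest on the additive terms for batch and prefix. At 24 h, 3 genes were lower with HbHp (background 0.607%), Manf at -0.25, Creld2 at -0.23 and Sec61a1 at -0.16. At 48 h, 8 differed (background 4.98%), with Calr at -0.30 (SE 0.0651, adjusted p = 0.00235), Hspa5 at -0.24 (SE 0.062, adjusted p = 0.0121), Creld2, Hyou1, Manf and Sec61a1 lower and Hspa13 and Dnajb9 higher by 0.24 and 0.25. With batch 3 libraries alone none of the 34 was called at either time, where 202 of 16515 genes were called at 24 h and 7 at 48 h. Without HbHp replicate 1, 6 of the 34 were called at 48 h, 5 of them among the 8, and the count over all genes fell from 821 to 332. The interaction of HbHp 200 µM and time called none of the 34 (0 at an unadjusted p under 0.05, 0 in DESeq2); a difference between the times was therefore not called. Controls at 48 h against 24 h gave no call among the 34 (background 4.5%, 5 with an unadjusted p under 0.05, DESeq2 1). Such a p was found for 3226 of all 16473 genes.

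Of the 24 PERK-ATF4 genes at 48 h, 12 rose and 3 fell with HbHp 400 µM (median 0.29), 8 rose and 2 fell with HbHp 200 µM (median 0.16), and 7 rose and 4 fell with Hp (median 0.09). Slc7a11, the cystine transporter gene, was at 1.97 (SE 0.316, adjusted p = 2.59e-06) and Trib3 at 1.08 (SE 0.19, adjusted p = 1.62e-05) with HbHp 400 µM, while Ddit4, an inhibitor of mTORC1, was at -0.57. Of the other lists with HbHp 400 µM, 6 of 22 degradation genes, 4 of 15 regulators, 5 of 27 translocation and glycosylation genes and 1 of 22 folding enzymes rose and none fell. Over all 16473 genes, 1968 were called (11.9%) and 1217 of them rose. Whether any list differs from this share was not tested. Bcap31, an ER membrane sorting protein, was at 0.39, Crebrf, a regulator of the response, at 0.37, Sec11c, a signal peptidase subunit, at 0.39 and Tmx3, a disulfide isomerase, at 0.26.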

How the data were processed

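Per the submitters' processing notes, the authors counted reads with featureCounts on GRCm39, with versions not given in the sources used here, and deposited raw counts per Ensembl gene for each library. Per the labels, RNA was extracted with a Lexogen SPLIT kit and libraries were made with TruSeq mRNA. Symbols, exon lengths and GC content came from GENCODE M21 (GRCm38) and promoters from RefSeq (GRCm38.p6), and no coordinate was moved between builds. The 34 genes and the other lists were chosen with earlier results of these data known.

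Counts were fitted with edgeR 4.0.16 in R 4.3.3 (TMM, filterByExpr with a smallest count of 10, quasi-likelihood F test, Benjamini-Hochberg adjustment over all genes tested, threshold 0.05). Batch 1 (60 libraries) and batches 2 and 3 (107 libraries, with batch and name prefix as terms) were fitted apart. Standard errors were obtained from each fitted fold change and its F statistic. CPM use TMM library sizes. The fitting steps were tested on simulated data with known fold changes.

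Values by library are given for Hspa5, Hsp90b1, Xbp1, Ern1, Eif2ak3 and Atf6 and, in each comparison with a control with at least 3 of the 34 called, for the 3 called with the largest log2 fold change and a mean of at least 1 CPM. Of each other list at most 2 called genes per direction were eligible for naming. Other values were chosen after they were seen. Alternatives were DESeq2 1.42.0, RLE scaling, no low-count filter, a GC and length correction, a replicate block, the batch term only, only the groups compared, E2 libraries alone and leaving out replicates. Batch 3 alone and the omission of 3 libraries that stood apart were added after the data were seen. The 21 libraries without a group entered no comparison.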

Additional observations from a re-analysis of the deposited data

Results flagged for a closer look

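Among 224 groups of 4 to 10 libraries (13 genes and the mean of the 34 genes), 24 had a library far from the rest by Dixon's criterion, which chance alone meets in about 1 group in 20. HbHp 200 µM at 48 h replicate 1 accounts for 9 of them. Its mean log2 CPM over the 34 genes was 6.91, and it had 817 CPM for Hspa5, 880 for Hsp90b1, 732 for Calr, 658 for Canx, 97.5 for Hspa13, 17.4 for Ern1, 124 for Manf and 148 for Xbp1. The level was low for Calr and Ern1 and high for the rest.

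Heme-albumin 200 µM replicate 8 was high for Canx (753 CPM), Hsp90b1 (622), Hspa13 (82.3) and Pdia5 (13.9), and heme-albumin 400 µM replicate 8 was high for Manf (117). Both carry the same code in their library names. For Hspa13, low libraries were HbHp 400 µM at 24 h replicate 4 (61.8), Hb 200 µM at 48 h replicate 10 (60.5), Hb 400 µM at 48 h replicate 10 (53.4) and the 24 h control replicate 10 (48.5). Each of these except the HbHp library was the only library of its group in batch 3 with the prefix E2. In the fit, the batch 3 term of Hspa13 was -0.24 (adjusted p = 1.39e-06 in edgeR).

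Single values far from their group were 59.3 CPM for Atf6 in heme-albumin 200 µM replicate 7, 86.5 for Atf6 in heme-albumin 50 µM replicate 5, 859 for Calr in HbHp 400 µM at 24 h replicate 3, 43.7 for Eif2ak3 in HbHp 200 µM at 24 h replicate 2, 74.4 for Eif2ak3 in Hb 200 µM at 24 h replicate 10 and 90.3 for Xbp1 in heme-albumin 12.5 µM replicate 8.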

How the results depend on the processing

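No result reversed. Of the single-gene values under the alternatives, 591 kept their direction and side of the threshold, 39 lost the call and 15 gained it, and RLE scaling changed none. The counts with heme-albumin and between hemeHpx and heme-albumin stayed within 1.5 times. For hemeHpx against control (8), the count was 3 without the low-count filter and 1 with the GC and length correction. For HbHp 200 µM at 24 h (2) it was 5 with the batch term only and 0 with E2 libraries alone, with 1 to 3 when replicates were left out. For HbHp 400 µM at 24 h (4) it was 2 with E2 libraries alone, and 1 to 4 with replicates left out. For Hp at 24 h (1) it was 0 with the GC correction, with E2 alone and with batch 3 alone. At 48 h it was 4 (E2 alone) and 3 (batch 3 alone) for HbHp 200 µM (11; replicates left out 9 to 13), 5 and 4 for HbHp 400 µM (13; 9 to 13), and 0 and 0 for Hp (10; 10 to 12). For HbHp against Hb at 24 h (3) it was 6 with the batch term only, 5 with DESeq2, 0 with E2 alone and 0 with batch 3 alone (2 to 4 with replicates left out), and at 48 h (8) 5 with the GC correction, 2 with E2 alone and 0 with batch 3 alone (6 to 8). For HbHp against Hp at 48 h (0) it was 2 with the GC correction and 1 with DESeq2, E2 alone or batch 3 alone. For controls at 48 h against 24 h (0) it was 1 with DESeq2 and with E2 alone. The cause was not tested; E2 alone and batch 3 alone use fewer libraries.

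Libraries were not treated as paired in the main fit. Same-coded libraries did not deviate together in every pair, which does not exclude pairing. In batch 1 every code occurs in all treatment groups, so a pairing by code would be left out of that fit. Their deviations had a median correlation of 0.237 in batch 1 (lowest -0.757), against -0.0289 for other codes, and of 0.0441 in batches 2 and 3 (lowest -0.87), against -0.00276. In batch 1 the deviations thus hint at pairing by code, which the labels do not state. With the code as a replicate block the counts were 14 and 17 with heme-albumin 200 and 400 µM, 10 for hemeHpx against control and 13 for hemeHpx against heme-albumin (over all genes 3706 in place of 1276, and 5131 in place of 4022), 1 with HbHp 200 µM and 1 with HbHp 400 µM at 24 h, 0 with Hp at 24 h, 12, 13 and 10 with HbHp 200 µM, HbHp 400 µM and Hp at 48 h, 0 for HbHp against Hb at 24 h and 1 for controls at 48 h against 24 h. Ern1 with heme-albumin 400 µM passed under the block, as higher, at 0.19 (adjusted p = 0.013 in edgeR).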

Other observations

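The 20 libraries tagged HbHpx but titled as hemoglobin and haptoglobin at 400 µM were left without a group. On CPM of all counts, Hspa5 in them ran from 438 to 660 (median 528), Hsp90b1 from 447 to 682 (median 530), Calr from 550 to 891 (median 691), Hspa13 from 58.7 to 81.6 (median 65.1) and Ern1 from 28.8 to 46.6 (median 35.2). On the same scale Hspa5 ran from 648 to 792 (median 696) in the 24 h controls and from 658 to 772 (median 723) in the 48 h controls of batches 2 and 3, and was 668 in the 1 control with conflicting times. These are values of single libraries and were not tested.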
